A study of Mus musculus with 2 samples.

Results

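The members described here are the genes for matrix metalloproteases (Mmp), ADAM and ADAMTS proteases, ADAMTS-like proteins (Adamtsl) and tissue inhibitors of metalloproteases (Timp). They were chosen by gene symbol alone: each of these stems followed by digits and, at most, a final letter. The annotation of the array gave 124 such probe sets for 70 genes, of 18194 genes with a single symbol in all. By family these were 18 Mmp, 28 Adam, 15 Adamts, 5 Adamtsl and 4 Timp genes.

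The RNA came from ovaries of mice at 2 days of age. Both groups carried SmoM2, a permanently active form of the hedgehog signal transducer Smoothened. The control group was Amhr2(+/+)-SmoM2, with no Cre. The mutant group was Amhr2(cre/+)-SmoM2, in which Cre made from the locus of the anti-Müllerian hormone receptor, a gene of gonadal somatic cells, switches SmoM2 on. The mutants thus differed from the controls in Cre, in 1 changed Amhr2 copy and in active SmoM2 together, and these cannot be told apart. RNA of 8 mice per genotype was pooled onto 1 array per group, so no difference below has a replicate error or a test, and each value describes these 2 pools only.

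Matrix metalloproteases are zinc enzymes that cut collagens, gelatin and other matrix proteins, and most are made as inactive precursors. ADAMs are membrane proteins, and those with an active protease domain release the outer parts of growth factors and receptors from the cell surface. ADAMTS enzymes are secreted and bind the matrix, where some cut versican and related proteoglycans and others trim procollagens, whereas ADAMTS-like proteins lack the protease domain. TIMPs bind and block the active enzymes. In the ovary these families are best known from follicle growth and ovulation, when the follicle wall is opened.

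Signals are probe-set intensities on a linear scale. A probe set was counted as measured when at least 1 pool reached the signal minimum of 80.7, the median of all values on both arrays. A gene was represented by its brightest measured probe set. The log2 ratio is mutant over control with a constant of 22.2 added to each signal (the 25th percentile of the values), which understates changes of dim genes. Fold values use the signals without that addition, and a fold with 1 pool under the minimum is a lower bound, the brighter signal over 80.7. Counts of genes past 1.5-fold or 2-fold use the log2 ratio, so a dim gene can have a fold above the limit and not be counted. The SD of the log2 ratio between probe sets of the same gene was 0.385 over all genes and 0.438 over the 13 members with several measured probe sets. Probe sets differ in brightness for technical reasons, so signals are compared between the pools and not between genes. The summed signal of a marker list therefore mostly follows its brightest probe sets and is no measure of the number of cells.

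The arrays showed ovary. All 6 germ cell markers (Ddx4, Dazl, Figla, Nobox, Sycp3 and Sohlh1) and all 6 pregranulosa markers (Foxl2, Lgr5, Amhr2, Fst, Runx1 and Wnt4) were measured. The share of probe sets at the signal minimum was 50.3% in control and 49.8% in mutant ovaries. The ratio of the 3' to the 5' signal was 8.48 and 10.5 for Actb and 3.28 and 4.98 for Gapdh, each higher in the mutant pool, and the median log2 ratio was 0.23 for the spiked hybridization controls. The part of the 3' to 5' gaps in the results was not tested. Centring on the hybridization controls was run as an alternative setting, with its counts given below. All 4 steroidogenic markers were at least 2-fold higher in mutant ovaries on their brightest probe sets, with a median log2 ratio of 5.39. Among them Cyp11a1 had 6.79 on its brightest probe set but 0.26 on its other measured probe set. Medians were 0.57 for 6 endothelial, 0.65 for 6 smooth muscle and -0.41 for 5 surface epithelial markers, and of the cartilage and bone markers only Ibsp was measured. Ibsp, bone sialoprotein, read 2.1 in control and 1199 in mutant ovaries, at least 14.9-fold higher. A second probe set of Ibsp gave 1.56 on the log2 scale.

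Of the 70 genes 41 were measured, 29 of them in both pools, 8 in the mutant pool alone and 4 in the control pool alone. By log2 ratio, the members at least 2-fold higher in the mutant pool were Adam23, Adamts5, Adamts15, Adamtsl2 and Adamts4, and Adamts16 was the member at least 2-fold lower. Adamts3 and Adamts19 exceeded 2-fold on the signals themselves but not by this ratio. These are 5 and 1 of the 41, against backgrounds of 3.21% and 1.4% of all 12308 measured genes. At 1.5-fold, 13 members were higher, against a background of 9.31%, and 5 were lower, against 7.88%. Since 12 members were measured in their brighter pool alone and could only differ, the counts were repeated over the 29 measured in both pools. There, 3 members were at least 2-fold higher (background 1.96%) and 1 was at least 2-fold lower (0.742%). At 1.5-fold 7 of the 29 were higher (7.17%) and 1 was lower (6.39%). Centring on the hybridization controls turned the 2-fold split to 3 higher and 5 lower, with all genes then at 2.20% and 3.81%. The median log2 ratio was 0.37 over the 41 members and -0.02 over all measured genes. Over the 29 members measured in both pools it was 0.27, against -0.02 over all genes measured in both. Just inside the 1.5-fold limit lay Mmp8 and Adamts1, each with a log2 ratio of 0.60, and just outside it lay Adam8 with 0.58.

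**Figure D1:**
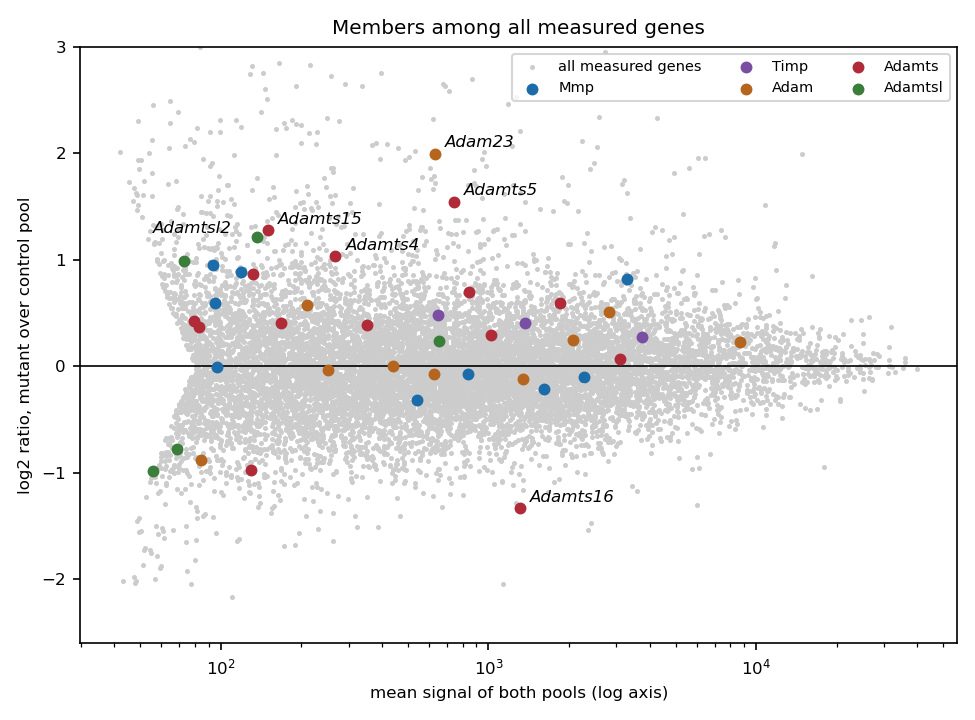
Log2 ratio of mutant over control pool (vertical axis) against the mean signal of both pools (log horizontal axis) for all 12308 measured genes in grey and the 41 measured members in colour by family; 20 other genes lie outside the plotted range. Adam23 and Adamts5 stand highest among the members, and Adamts16 stands lowest with a log2 ratio of -1.33.

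In the Mmp family, the gelatinases were brighter in the mutant pool and most of the classical collagenases and stromelysins were too dim to measure. Mmp2, gelatinase A, which cuts denatured collagen and basement membrane collagen, read 2372 in control and 4223 in mutant ovaries. Its second probe set read 2227.5 and 3546. Both probe sets were brighter in the mutant pool, by 1.78-fold and by a log2 ratio of 0.67. In bulk RNA more cells of a type and more RNA per cell cannot be told apart, here and below. Mmp2 is known as an enzyme of stromal cells. The 8 stroma and interstitium markers had a median log2 ratio of 0.83, with 6 of them past 1.5-fold upward and summed signals of 55817 in control and 83342 in mutant ovaries. Their part in the Mmp2 difference was not tested.

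Mmp9, gelatinase B, and Mmp8, the neutrophil collagenase, were dim. Mmp9 read 76.7 in control and 160.6 in mutant ovaries, at least 1.99-fold higher. Its other probe set stayed under the minimum, at 8.7 and 25.4. Mmp8 read 71.0 and 119.0, at least 1.47-fold higher. Both genes crossed the signal minimum in the mutant pool alone. Adam8, a surface protease of leukocytes, read 164.1 and 255.7 and was 1.56-fold higher.

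These 3 proteases are products of myeloid cells, and markers of such cells differed between the pools as well. Of 7 neutrophil markers 6 were measured, all of them at least 1.5-fold higher in the mutant pool and 5 at least 2-fold higher. Their median log2 ratio was 1.62, and their summed signals were 8003 in control and 20072 in mutant ovaries. The granule genes Ngp and Camp read 367.7 and 192.4 in the control against 1553 and 814.2 in the mutant pool. Mpo, myeloperoxidase, read 23.6 and 307.4, passing the minimum in the mutant pool alone, so it could only be higher. Elane, neutrophil elastase, stayed under the minimum with a highest signal of 77.6. The S100a8 and S100a9 signals, for calcium-binding proteins that neutrophils hold in bulk, were 2.33-fold and 2.44-fold higher. Macrophage and leukocyte markers had a median of 0.51 over 8 measured of 9, with 4 at least 1.5-fold higher and summed signals of 5118 and 8332. The part of these cells in the Mmp8, Mmp9 and Adam8 differences was not tested.

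The membrane-type enzymes sit on the cell surface, and among them Mmp14 activates the Mmp2 precursor. Mmp14 read 1734 in control and 1494 in mutant ovaries, and 541.4 and 445.5 on a second probe set. Its log2 ratios of -0.21 and -0.27 were smaller in size than the SD between probe sets, and in the opposite direction to Mmp2. That SD holds no difference between animals or arrays, so it does not give the error of these ratios. Mmp17, a membrane enzyme held by a lipid anchor, read 56.7 and 130.6, at least 1.62-fold higher. Mmp24 read 97.1 and 97.0. The 3 measured probe sets of Mmp16 disagreed: the brightest read 601.2 and 479.6, while the other log2 ratios were -0.75 and 0.90. No direction can be given for Mmp16. Mmp11, stromelysin-3, a secreted enzyme of fibroblasts near epithelia, read 860.8 and 817.3. Mmp23 read 2356.5 and 2199.5, and its probe sets gave -0.10 and 0.14 on the log2 scale. By log2 ratio 4 of the 9 measured Mmp genes were past 1.5-fold upward and 0 downward, against 9.31% and 7.88% of all measured genes, and the family median was -0.0012. Mmp8, Mmp9 and Mmp17 passed the minimum in the mutant pool alone and could only be higher. Of the 6 measured in both pools, Mmp2 was past 1.5-fold, and the other 5 had ratios below 0 on the brightest probe set. Mmp24 among them was even, and the probe sets of Mmp16 and Mmp23 went both ways, so no shared direction can be given.

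**Figure D2:**
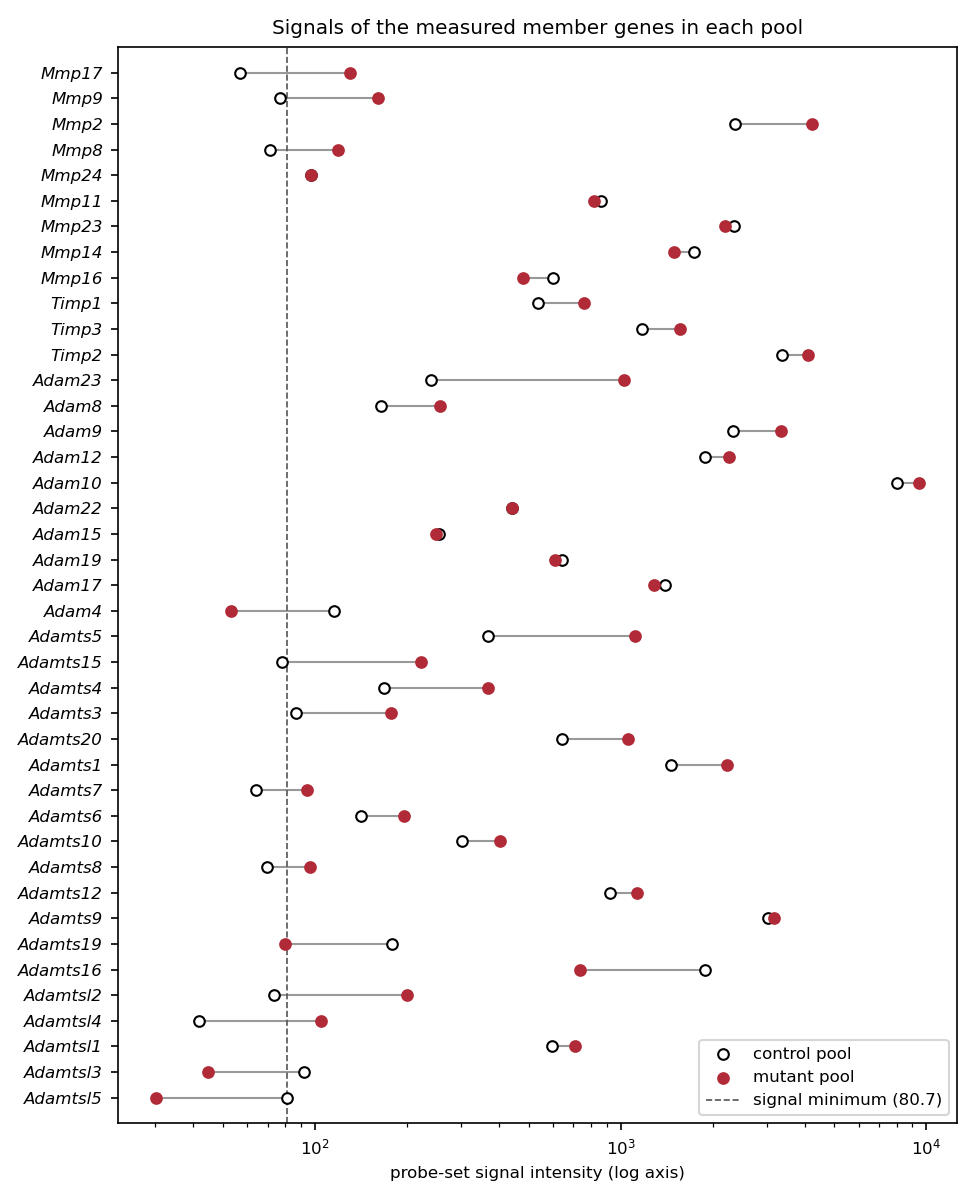
Probe-set signal (log horizontal axis) of each of the 41 measured members on its brightest measured probe set, with the control pool as open circles, the mutant pool as filled circles and the signal minimum of 80.7 as a dashed line. The pools lie far apart for Adam23, Adamts5 and Adamts16 and almost together for Adam22 and Mmp24, and 12 genes have 1 pool under the line.

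The other 9 Mmp genes on the array were not measured in either pool. They were Mmp1a, Mmp1b, Mmp3, Mmp7, Mmp10, Mmp12, Mmp13, Mmp19 and Mmp20, with highest signals between 4.6 for Mmp1b and 54.5 for Mmp7. By RefSeq gene order, 10 Mmp genes follow one another with no other protein-coding gene between them, and 9 of these are on the array. Of those 9 only Mmp8 was measured, and the remaining 8 make up all of the unmeasured Mmp genes but Mmp19.

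The start regions of these clustered genes share short sequences that the choice by symbol did not use. RefSeq start regions were at hand for 41 of the 70 members, and the 250 bases before each start were searched on both strands. The motifs were TGACTCA, the site of the AP-1 factors Fos and Jun, GGGCGG, the GC box of Sp1, TATAAA, the TATA box, and GACCACCCA, the site of the Gli factors of hedgehog signalling. TGACTCA occurred in 7 of the 9 clustered Mmp genes and TATAAA also in 7 of 9, whereas GGGCGG occurred in 0 of 9. Over all 32851 start regions the shares were 4.46%, 12.4% and 32.7%. Matches overlapped in 1 place, between GC boxes of Adam10. The 100 bases before the start of 4 unmeasured clustered genes are shown because they hold both motifs close to the start, with each match in capitals, 5′ to 3′ on the plus strand of GRCm38.p6. They lie at chr9:7445722-7445821 for Mmp3, chr9:7502242-7502341 for Mmp10, chr9:7464041-7464140 for Mmp1a and chr9:7272414-7272513 for Mmp13.
Mmp3: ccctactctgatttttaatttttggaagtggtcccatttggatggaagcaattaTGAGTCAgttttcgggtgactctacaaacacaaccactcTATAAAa
Mmp10: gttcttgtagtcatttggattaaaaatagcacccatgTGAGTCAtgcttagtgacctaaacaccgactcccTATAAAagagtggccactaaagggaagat
Mmp1a: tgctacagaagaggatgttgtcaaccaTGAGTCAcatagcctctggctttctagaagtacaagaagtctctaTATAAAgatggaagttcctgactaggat
Mmp13: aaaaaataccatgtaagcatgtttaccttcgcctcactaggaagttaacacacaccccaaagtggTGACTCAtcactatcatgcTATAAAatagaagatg

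The TGACTCA match, read as TGAGTCA on the other strand, begins 46 bases before the start in Mmp3, 63 in Mmp10, 73 in Mmp1a and 35 in Mmp13. The motifs were also counted in measured and unmeasured members. Among 24 measured members with a start region, 1 held TGACTCA (Adam19), 2 held TATAAA and 18 held GGGCGG. Among 17 unmeasured members 7, 9 and 1 did. All 7 with TGACTCA and 7 of the 9 with TATAAA are the clustered Mmp genes already counted above. The rest with TATAAA are Adam6a and Adam6b. For both motifs this split thus counts the same neighbouring genes again. The same split over all array genes gave 3.92% and 6.53% for TGACTCA, 8.44% and 15% for TATAAA and 63.7% and 30.5% for GGGCGG, in measured and unmeasured genes. The median GC content of the windows was 65.6% in measured and 41.6% in unmeasured members, and 60.0% and 52.0% over all array genes, so base composition differs along with the motifs. GACCACCCA was found in 0 of the 41 members with a window and in 0.225% of all windows. These 41 are not the 41 measured members, and Adamts5, Adamts15, Adamts16 and Mmp2 had no window to search. With so rare a site, 0 of 41 does not set the members apart from other genes. A match is only a run of letters and no binding was measured.

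The 3 measured TIMPs each had a positive log2 ratio on the brightest probe set, and none reached 1.5-fold. Timp1, the inducible inhibitor, read 537.9 in control and 760.2 in mutant ovaries, a log2 ratio of 0.48. Timp3, which binds the matrix and also blocks Adam17 and ADAMTS enzymes, read 1176 and 1566, and its 3 measured probe sets gave 0.02, 0.29 and 0.41. Timp2, which takes part in the activation of Mmp2 by Mmp14, read 3378 and 4090. The 5 measured probe sets of Timp2 went both ways, with log2 ratios of 0.27, 0.55, -0.23, -0.45 and -0.81. Timp2 therefore had no direction that its probe sets shared. Timp4 was not measured, with signals of 35.3 and 36.9.

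Among the ADAMs, Adam23 had the largest difference of all members. Adam23 lacks protease activity and is known in neurons as a receptor for secreted LGI proteins. It read 239.2 in control and 1023 in mutant ovaries, 4.28-fold higher, and ranked 84 of the 12308 measured genes by log2 ratio. This rests on 1 probe set, since its other probe sets were under the minimum at 8.1 and 10.1 and at 32.2 and 49.3. Adam22, its close relative, also without protease activity, read 439.4 and 441.2. The 2 relatives thus differed in log2 ratio, at 2.00 and 0.01.

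The main shedding enzymes of the cell surface showed no shared difference. Adam10, which cuts Notch and other receptors, read 8030 in control and 9449 in mutant ovaries, but 556 and 316.5 on a second probe set, a log2 ratio of -0.77. Adam17, which releases tumour necrosis factor and ligands of the epidermal growth factor receptor, read 1399 and 1286, and 374.7 and 254 on a second probe set. Both Adam17 values were lower in the mutant pool, with log2 ratios of -0.12 and -0.52. Adam9, a widely made surface protease, read 2331 and 3333 and had a log2 ratio of 0.51. Adam12, an enzyme of mesenchyme and muscle precursors, had 0.25 and 0.53. Adam15 and Adam19 had -0.03 and -0.07 on their brightest probe sets, and the other measured probe set of Adam15 gave 0.56. Adam11, Adam28 and Adam33 were not measured.

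The remaining 16 ADAM genes on the array include many that are known from sperm and testis, and 15 of them were not measured. Their highest signals lay between 1.4 for Adam6b and 44.9 for Adam21. The exception was Adam4, which read 115.7 in control and 52.9 in mutant ovaries, at least 1.43-fold lower. Of the 10 measured Adam genes, only Adam4 was past 1.5-fold downward by log2 ratio (-0.88) and only Adam23 was past it upward. Adam8 was just short of it. The shares over all measured genes were 7.88% downward and 9.31% upward. Adam4 passed the signal minimum in the control pool alone, so its ratio could only be negative.

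**Figure D3:**
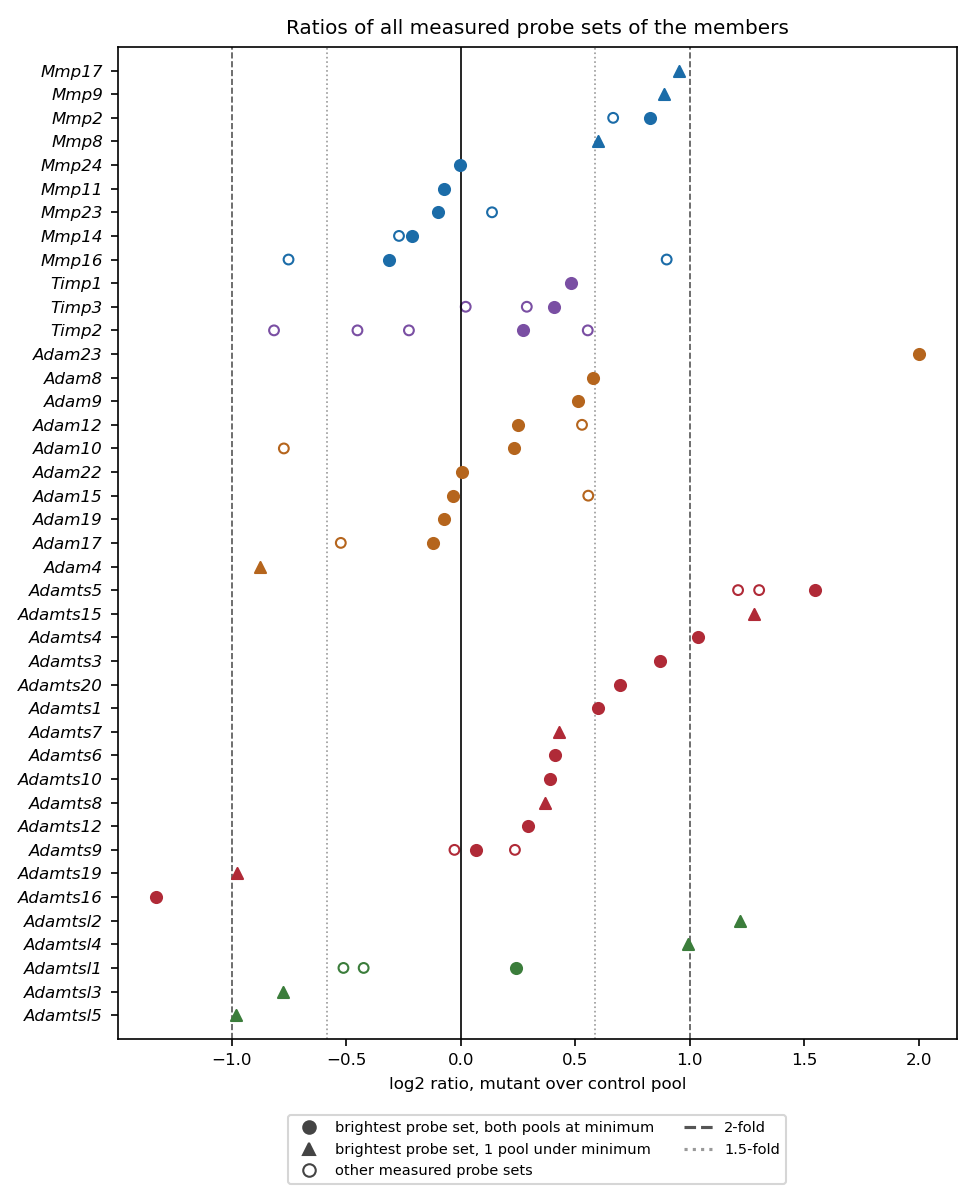
Log2 ratio of mutant over control pool for every measured probe set of the 41 members, coloured by family, with filled circles for the brightest probe set, triangles where 1 of its pools lay under the signal minimum and open circles for other probe sets. The 3 probe sets of Adamts5 lie together between 1.21 and 1.55, whereas those of Mmp16, Timp2 and Adam10 lie on both sides of 0.

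Most of the ADAMTS proteoglycanases were brighter in the mutant pool, while Adamts9 was close to even. All 7 on the array were measured, and 5 were past 1.5-fold and 3 past 2-fold upward, against 9.31% and 3.21% of all measured genes. Adamts8 and Adamts15 passed the signal minimum in the mutant pool alone and could only be higher. Of the 5 measured in both pools 4 were past 1.5-fold and 2 past 2-fold, against 7.17% and 1.96%, with a median log2 ratio of 0.70. Centring on the hybridization controls left 3 of the 7 past 1.5-fold and 2 past 2-fold, against 4.96% and 2.20% of all genes. Under it Adamts1 and Adamts20 had 0.37 and 0.47, Adamts4 had 0.81 and Adamts9 had -0.16. Adamts5, the main aggrecan-cutting enzyme of mouse cartilage, which also cuts versican, read 367.1 in control and 1116 in mutant ovaries. Its other measured probe sets read 198.3 and 488.1, and 132.1 and 358.4. All 3 were brighter in the mutants, by 3.04-fold on the brightest and with log2 ratios of 1.21 and 1.30 on the others. Adamts4, a second aggrecan-cutting enzyme, read 167.7 and 367.4 and was 2.19-fold higher. Its other probe set read 3.9 and 37.2, under the minimum. Adamts15 read 78.1 and 221.7, at least 2.75-fold higher.

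The other proteoglycanases differed less. Adamts20, known for clearing versican along the path of pigment cell precursors, read 641.7 and 1054, 1.64-fold higher. Adamts1, a versican-cutting enzyme that is needed for normal ovulation, read 1465 and 2229.5, 1.52-fold higher. Adamts8 read 69.4 and 96.0, at least 1.19-fold higher. Adamts9 was close to even, at 3036 and 3184, and its 3 probe sets gave 0.07, 0.24 and -0.03 on the log2 scale. Adamts1 lies next to Adamts5 in the genome and Adamts8 next to Adamts15, with no protein-coding gene between them. The log2 ratios were 0.60 and 1.55 in the former pair and 0.37 and 1.28 in the latter, where both genes were measured in the mutant pool alone and could only have positive ratios.

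Start regions are shown for Adam23, the member with the highest ratio, and for Adamts1 and Adamtsl2, brighter members whose windows hold a TATA box and a GC box. Matches to the searched motifs are in capitals, and each window is the 100 bases before the start, 5′ to 3′ along the gene. They lie in GRCm38.p6 at chr1:63445791-63445890 on the plus strand for Adam23, chr16:85803114-85803213 on the minus strand for Adamts1 and chr2:27079279-27079378 on the plus strand for Adamtsl2.
Adam23: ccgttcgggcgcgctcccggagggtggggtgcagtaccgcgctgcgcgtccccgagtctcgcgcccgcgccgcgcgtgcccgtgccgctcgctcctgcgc
Adamts1: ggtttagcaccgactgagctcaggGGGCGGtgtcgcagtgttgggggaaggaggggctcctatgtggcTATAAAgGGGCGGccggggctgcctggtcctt
Adamtsl2: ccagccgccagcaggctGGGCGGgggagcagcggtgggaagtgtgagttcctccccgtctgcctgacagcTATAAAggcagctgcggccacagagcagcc

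Adamts1 and Adamtsl2 are the 2 measured members with TATAAA in the window, at 32 and 30 bases before the start, and neither holds TGACTCA. The Adam23 window holds no match to any of the 4 motifs.

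Genes for proteins that these enzymes cut, or that lie beside them in the matrix, went both ways, and several proteoglycan genes were brighter. The list has 17 matrix genes and 13 had a measurable signal. Past 1.5-fold by log2 ratio there were 6 upward and 1 downward, against 9.31% and 7.88% of all measured genes, and 3 of the 13 had ratios below 0. The lower one was Thbs1, thrombospondin-1, a matrix protein, at 1620 and 833.9, with a log2 ratio of -0.09 on its other probe set. The median log2 ratio was 0.57, against -0.02 for all measured genes. Dcn and Lum in this list also serve as stroma markers. Vcan, versican, the substrate shared by the ADAMTS proteoglycanases, had 3 measured probe sets with log2 ratios between 1.15 and 1.39. Bcan, brevican, a proteoglycan best known from brain, read 242.9 in control and 888 in mutant ovaries, 3.66-fold higher. Hapln1, the link protein that ties such proteoglycans to hyaluronan, read 281.9 and 723.9, 2.57-fold higher, and its 4 measured probe sets ranged down to 0.45. Eln, elastin, was 2.33-fold higher, with a log2 ratio of 0.52 on its other probe set. Acan, aggrecan, and Comp, a cartilage protein cut by Adamts7 and Adamts12, were not measured, with highest signals of 65.5 and 58.4. The stroma markers, whose values stand with Mmp2, were higher alongside, and their part in these differences was not tested.

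Of the other ADAMTS enzymes, Adamts3, which trims procollagen and activates the lymphatic growth factor Vegfc, read 86.7 in control and 176.6 in mutant ovaries, 2.04-fold higher. Its log2 ratio was 0.87 because of the addition to both signals. The cartilage-linked Adamts7 and Adamts12 and the fibrillin-linked Adamts6 and Adamts10 had log2 ratios between 0.29 and 0.43, under 1.5-fold. Adamts18 was not measured, with a highest signal of 71.6.

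Adamts16 and Adamts19 went the other way. Adamts16 read 1884 in control and 735.6 in mutant ovaries, 2.56-fold lower, and ranked 56 from the lowest of the 12308 measured genes. Its second probe set was under the minimum, at 75 and 58.3. Adamts19 read 178.8 and 80.0, at least 2.22-fold lower, with a log2 ratio of -0.98. Both genes thus stood apart from the 12 other measured ADAMTS genes, which had ratios above 0, except for Adamts9 once centred as above. Of those 12, 9 were measured in both pools, and Adamts19 itself passed the minimum in the control pool alone and could only be lower. Pregranulosa markers were lower in the same pool. Their median log2 ratio was -1.02, 5 of 6 were at least 1.5-fold lower, and summed signals were 22331 in control and 11058 in mutant ovaries. Amhr2 is one of these markers and is itself altered in the mutants, where 1 copy carries Cre. Without it the median was -0.95, 4 of 5 were past 1.5-fold downward, and the sums were 13740 and 7573. Germ cell markers were lower too, with a median of -0.72 and summed signals of 29550 and 19308. Surface epithelial markers had a median of -0.41, with 4 of 5 ratios below 0. Which cells made Adamts16 and Adamts19 was not measured, and the part of these cell types in their differences was not tested.

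The ADAMTS-like genes apart from Adamtsl1 were dim, and each was measured in its brighter pool alone. Adamtsl2, whose product binds fibrillin and a binding protein of latent TGF-beta, read 73.2 in control and 199.7 in mutant ovaries, at least 2.47-fold higher. Adamtsl4, another fibrillin partner, read 41.6 and 104.6, at least 1.30-fold higher. Adamtsl3 read 92.3 and 44.7, at least 1.14-fold lower. Adamtsl5 read 81.1 and 30.1, and its control signal sat so near the minimum that the bound is only 1.005-fold. Adamtsl1 read 594.5 and 706.8, but its other measured probe sets had log2 ratios of -0.42 and -0.51. In 4 of these 5 genes 1 pool lay under the signal minimum, so their ratios could only have the sign they had. Adamtsl1, measured in both pools, had probe sets of both signs.

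Other protease systems were compared through lists chosen by function. Of 10 plasminogen system genes 4 were measured and 0 of them reached 1.5-fold in either direction, with a median log2 ratio of -0.10. Plat, tissue plasminogen activator, read 1674 in control and 1453 in mutant ovaries, but had a log2 ratio of 0.39 on its other probe set, and Plau, urokinase, was not measured, with a highest signal of 71.2. Activators and surface regulators of metalloproteases had a median of -0.07 over 16 measured of 18. By log2 ratio 1 was at least 1.5-fold higher and 1 lower, against 9.31% and 7.88% of all measured genes. The former was Spock2, a matrix proteoglycan, at 80.0 and 208.6, at least 2.58-fold higher. The latter was Tspan17, a membrane partner of Adam10, at 94.2 and 48.7, for which the bound is only 1.17-fold. Each passed the signal minimum in its brighter pool alone, so its ratio could only have the sign it had.

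The other zinc proteases included larger differences. Of 13 listed genes 10 were measured, with a median of 0.04. At least 1.5-fold higher were 4 and lower was 1, against 9.31% and 7.88% of all measured genes. Enpep, the aminopeptidase that cuts angiotensin, read 1400.5 in control and 7154 in mutant ovaries, 5.11-fold higher. Pappa2, which cuts insulin-like growth factor binding proteins, read 55.5 and 170.4, at least 2.11-fold higher. Mme, neprilysin, read 2037 and 3772.5, 1.85-fold higher, and Mep1b, a meprin subunit, read 148.7 and 66.6, at least 1.84-fold lower. Pappa2 and Mep1b passed the signal minimum in their brighter pool alone, so their ratios could only have the sign they had. Bmp1, the procollagen C-proteinase, was even, at 684.4 and 668.2.

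Cathepsins and cystatins had a median log2 ratio of 0.21 over 15 measured of 17. At least 1.5-fold higher were 3 and lower were 0, against 9.31% and 7.88% of all measured genes. Ctsg, cathepsin G of neutrophil granules, read 26.1 in control and 156.3 in mutant ovaries, at least 1.94-fold higher. Ctsh read 743.6 and 1223, and Ctso read 1095 and 1749 but had a log2 ratio of -0.74 on its other measured probe set. Growth factors and receptors that ADAMs can shed had a median of 0.22 over 12 measured of 18. Against 9.31% and 7.88% of all measured genes, 2 were past 1.5-fold upward and 0 downward. They were Vcam1, a leukocyte adhesion molecule, at 53.7 and 871.5 or at least 10.8-fold higher, with 1.82 as the log2 ratio of its other measured probe set, and Nrg1, neuregulin, which read 100 and 246.5. Ctsg, and Vcam1 on its brightest probe set, passed the signal minimum in the mutant pool alone and could only be higher.

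**Figure D4:**
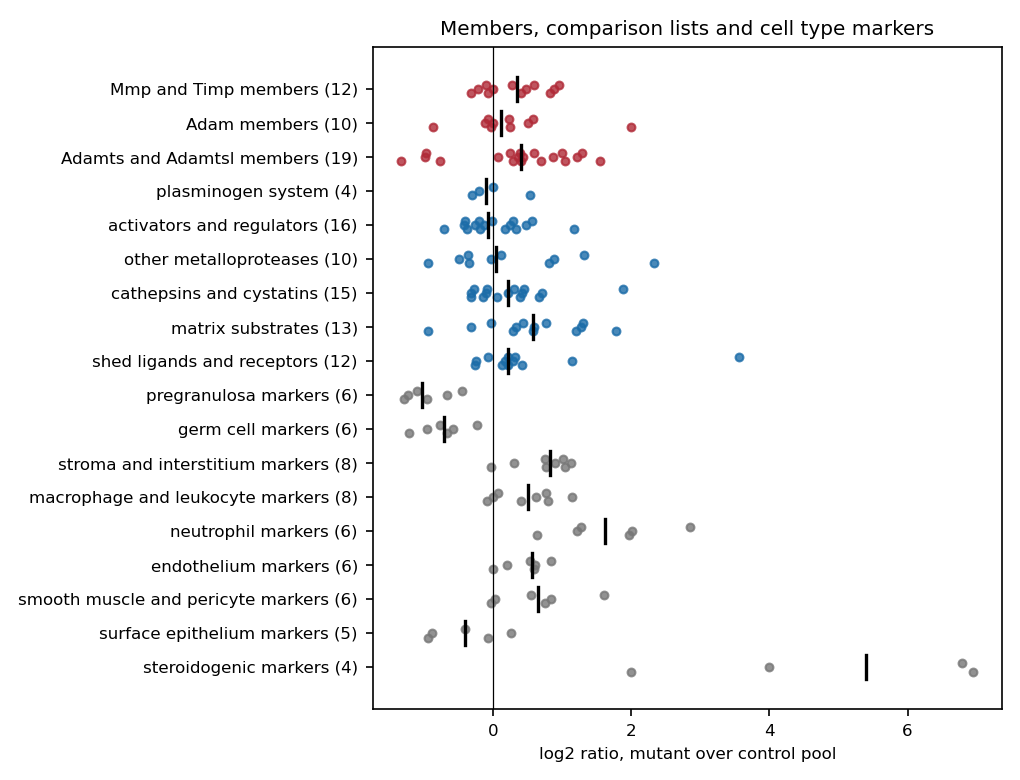
Log2 ratio of mutant over control pool for each measured gene of the member families (red), the comparison lists (blue) and the cell type markers (grey), with the number of measured genes in brackets and the median as a black bar. Pregranulosa and germ cell markers lie below 0, and all neutrophil and steroidogenic markers lie above 0.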

How the data were processed

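The values are probe-set signal intensities that the authors deposited, 1 column for each of 2 Affymetrix arrays; the submitters' processing notes name GCOS, with settings not stated in the labels. The mean without the lowest and highest 2% was 500.00 on both arrays, and values were used without further background correction or scaling. Gene names came from the platform annotation, which gave 34958 of 45101 probe sets a single symbol; all 70 member symbols matched a RefSeq table (GRCm38.p6) by Entrez ID. The 64 control probe sets were left out of gene counts.

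With 1 array per group no test was run; counts and medians stand beside those of all measured genes. Named genes are all TIMPs, 9 well-known enzymes, every member at 1.5-fold, and up to 4 such genes per comparison list. Other members are named with their family. Ngp, Camp, Mpo, S100a8, S100a9, Elane, Acan, Comp, Thbs1, Ibsp, Cyp11a1, Plat, Plau and Bmp1 were named after their values were seen. The members and lists were chosen with earlier results of these data known. The calculation (Python 3.11.15, pandas 2.3.3) was tested on simulated data, and 11 alternative settings were run. Precision is limited by there being 2 arrays.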

Additional observations from a re-analysis of the deposited data

How the results depend on the processing

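The median log2 ratio of the measured members stayed between 0.14 and 0.41 over the 11 alternatives. The counts depended on how dim values were treated. The share of all measured genes under the same setting follows each count in brackets. Members at least 2-fold higher numbered 5 as reported (3.21%) and 2 with a minimum set at the 75th percentile (2.37%). With the minimum required in both pools they numbered 3 (1.96%). They numbered 9 with 1 added to the signals (4.22%) and 2 with the median of all values added (2.01%). Members at least 2-fold lower numbered 1 as reported (1.40%), 5 with 1 added (2.33%) and 2 with values under the minimum raised to it (1.20%). At 1.5-fold 13 were higher as reported (9.31%), 5 with the 75th percentile (7.05%) and 7 with both pools required (7.17%). At 1.5-fold 5 were lower as reported (7.88%), 1 with the 75th percentile (5.70%) and 1 with both pools required (6.39%). There were 2 with the median added (4.96%) and 2 with low values raised (7.65%). These settings leave 21, 29 or 41 members measured.

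Centring on the hybridization controls moved the median of all genes from -0.02 to -0.25. It left 3 members past 2-fold upward and 5 downward, against 2.20% and 3.81% of all genes. Of 262 single-gene values 11 moved by more than the SD between probe sets and 0 values of members at 1.5-fold changed sign. Many of the 262 could not move. A gene with 1 measured probe set keeps its value under a stricter minimum that it passes and under another choice of probe set. Below 1.5-fold, Adam10 and Timp2 turned negative with the mean (-0.27 and -0.13) or the dimmest (-0.77 and -0.45) of their probe sets, and Adamts9 did with centring on the hybridization controls (-0.16). Those that moved belong to Adamtsl3, Adamtsl4, Adamtsl5, Adam10, Adam17 and Timp2. Adam23, Adamts5, Adamts16 and Mmp2 stayed at 1.5-fold in the same direction under all 11 alternatives. Adamts3 and Adamts4 did so in all 10 in which they were measured. Adamts15, Adamts19, Adamtsl2, Mmp9 and Mmp17, each with 1 pool under the minimum, did so in all 9 in which they were measured. The settings with a stricter minimum leave these last genes out and so do not test them. Of the genes in this list, all but Adamts5 and Mmp2 have 1 measured probe set, which another choice of probe set cannot change. For Adam23 and Adamts16 a stricter minimum could not change the value either. No paired analysis was possible because each group has 1 array.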
